A study of Mus musculus with 4 samples.

Results

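The Hedgehog pathway genes described here are the ligand genes Shh and Ihh, the receptor genes Ptch1, Smo and Hhip, the GLI inhibitor gene Sufu and the transcription factor genes Gli1, Gli2 and Gli3. They were taken by name from the deposited gene tables, and all 9 were found among 24319 gene names. RNA was sequenced from 2 normal prostates of wild-type F1 males of C57BL/6 and FVB parents, aged 22 weeks, and from 2 prostate tumours of TRAMP males, labelled late stage at 24 weeks and given as 24 to 28 weeks in the labels' protocols. TRAMP mice of the same F1 cross are heterozygous for a transgene in which the rat probasin promoter, active in prostate epithelium, drives the SV40 large T antigen, so the oncogene is directed to that epithelium. The transcript of the transgene was not analysed here. The series title concerns TET dioxygenases and hydroxymethylation in this model, and the comparison of tumour with normal prostate is the comparison its design implies.

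Hedgehog ligands are secreted proteins that bind Patched, a membrane protein that otherwise holds Smoothened inactive. Once released, Smoothened acts through the primary cilium to free the GLI factors from SUFU, and GLI activity raises transcription of Gli1, Ptch1 and Hhip, so these genes are commonly read as targets. In the developing prostate Shh is made by the epithelium and its targets are found mainly in the neighbouring mesenchyme. GLI1 acts as an activator, GLI2 mainly as an activator and GLI3 mainly as a repressor.

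Values are FPKM, fragments per kilobase of transcript and per library size, divided by a scaling factor for each library and called scaled FPKM below. The fragments behind each value were inferred from the width of the deposited Cufflinks interval and are called implied fragments. Total implied fragments were 985509 and 1578850 in normal 1 and normal 2 and 1431960 and 1141310 in tumour 1 and tumour 2, and the 9 genes rested on 0 to 66.1 implied fragments each, so most of them were measured near the lower limit of these libraries. The factors of normal 1 and normal 2 were 0.793 and 0.689, and those of tumour 1 and tumour 2 were 1.34 and 1.5. The median log2 fold change of all genes tested was 0.07 after this scaling and 0.86 with unscaled FPKM, that is, the values as the authors deposited them. Genes with an FPKM of 1 or more in 2 or more libraries were tested with limma, a linear model that shares the estimate of the spread among genes, and a gene was called at an adjusted p under 0.05. Voom, its version for counts, was run on the implied fragments. Each normal library came from a single prostate. For the tumours no label names separate mice, so the p-values describe the spread between these 4 libraries, which may be technical.

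Marker genes of several cell types differed between the normal prostates and the tumours, and between the tumours themselves. Neuroendocrine markers rose in the tumours, with 8 of 8 tested members past the threshold and a summed level of 0.408 and 1.20 scaled FPKM in the normal prostates against 517 and 795 in the tumours. Chga, which encodes the granule protein chromogranin A, had a listed value of 0 in normal 1 and normal 2 and stood at 133 and 396 in the tumours, and Syp, which encodes synaptophysin, rose from 0.408 and 0.553 to 43.2 and 34.4. The smooth muscle markers summed to 646 and 600 in the normal prostates, to 23.5 in tumour 1 and to 124 in tumour 2, and 1 of 8 fell, Myh11, at 32.0 and 27.6 against 0 and 4.03. Acta2, smooth muscle actin, stood at 97.6 and 87.0 against 0.174 and 18.5. The luminal epithelial markers summed to 2426 and 2809 in the normal prostates, 317 in tumour 1 and 1492 in tumour 2. Epcam, an epithelial adhesion protein gene, stood at 420 and 581 against 20.3 and 202, and Krt8, a luminal keratin gene, stood at 178 and 191, then at 0.258 in tumour 1 and 438 in tumour 2. Basal epithelial markers summed to 81.9 and 81.0 in the normal prostates and to 9.64 and 35.3 in the tumours, with 5 of 6 listed at 0 in tumour 1, and Krt5 fell from 24.8 and 16.3 to 0 and 2.69. The fibroblast markers summed to 124 and 99.4 in the normal prostates, 81.2 in tumour 1 and 401 in tumour 2. Dcn, which encodes decorin, made up most of the normal sums and stood at 104 and 84.2 against 5.45 and 111; the other 7 members summed to 19.4 and 15.2 against 75.7 and 290.3. Of 6 fibroblast markers tested 1 rose, Fbln1, which encodes the matrix protein fibulin-1, from 0.590 and 0.200 to 30.8 and 24.6. Pdgfra, a growth factor receptor gene, stood at 0.293 and 0.992 against 8.39 and 2.68, and Col1a1, a collagen gene, at 3.94 and 3.65 against 12.7 and 81.0. Fbln1, Pdgfra, Lyz2 and Cd68 were named after their values were seen. The macrophage markers summed to 15 and 9.86 in the normal prostates against 135 and 371, and 2 of 5 tested rose, Lyz2, from 0 and 1.84 to 94.2 and 206, and Cd68, from 0 and 0 to 13.1 and 31.2. Ptprc, a marker of all leukocytes, stood at 0.749 and 0 against 0.249 and 1.56. The endothelial markers summed to 7.42 and 3.95 against 1.56 and 38.5, with Pecam1 at 1.32 and 0.223 against 0.406 and 12.4. Sox10, which defines Schwann cells, was listed at 0 in all 4 libraries. In bulk tissue, fewer cells of a type and less RNA per cell cannot be told apart, and the part of these shifts in any result below was not tested.

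**Figure D1:**
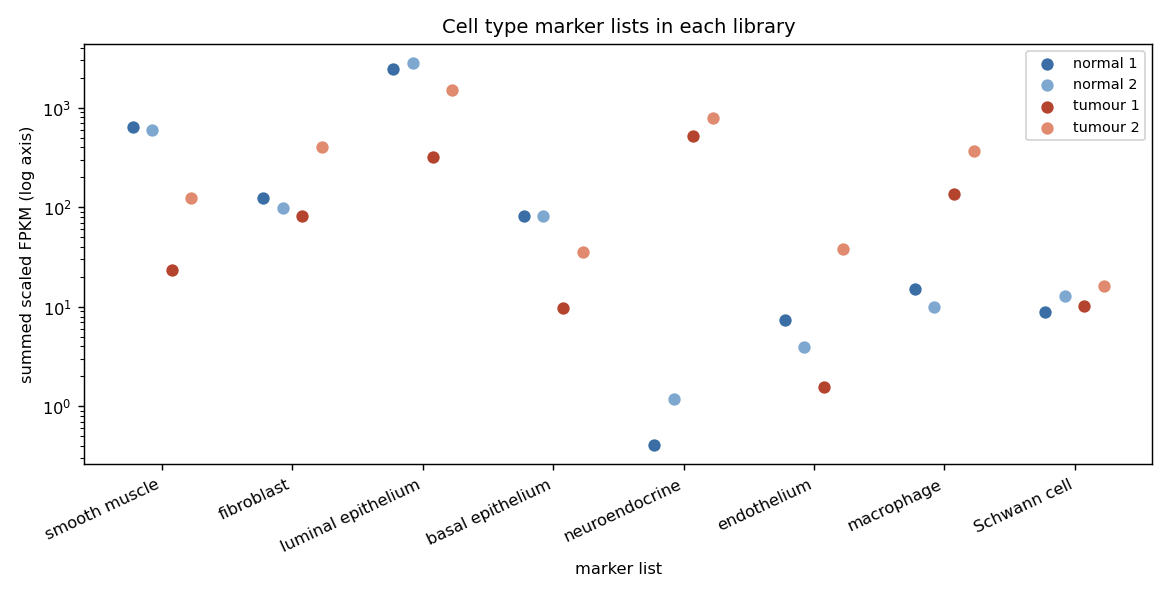
Summed scaled FPKM (log axis) of 8 lists of cell type markers, with a point for each of the 4 libraries. Neuroendocrine markers were at 0.408 and 1.20 in the normal prostates and at 517 and 795 in the tumours, while smooth muscle, luminal and basal markers were lowest in tumour 1.

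The ligand gene Shh was lower in both tumours. Shh (chromosome 5, 28456840 to 28467101, mm10) stood at 2.27 scaled FPKM in normal 1 and 1.79 in normal 2, was listed at 0 in tumour 1 and stood at 0.197 in tumour 2. The groups did not overlap. Behind these values were 4.7 and 5.6 implied fragments in normal tissue against 0 and 0.5 in tumour tissue, so each is poorly measured. The log2 fold change was -1.46 (SE 0.34, 95% interval -2.36 to -0.57), with an adjusted p of 0.0489 by limma with Benjamini-Hochberg adjustment over 13162 genes. Shh was the member called lower, 1 of 4 tested, where 8.27% of all genes tested were called lower. It reached the filter on low values through the normal prostates alone, so this direction was favoured by the filter. The call held by voom on the implied fragments (adjusted p = 0.0489). It was lost with unscaled FPKM (adjusted p = 0.0716) and with a pseudocount of 0.1 (adjusted p = 0.0537). Fits without 1 library leave a single library in a group. On the same 13162 genes the log2 fold change was -1.45 without normal 1, -1.72 without normal 2 and -1.25 without tumour 1. The call was lost in each of these fits. Without either normal library 0 of the 13162 genes were called, so that loss was not particular to Shh. Without tumour 2 the log2 fold change was -1.48. There the call was lost in the fit with its own filter and held on the same 13162 genes. The log2 fold change ranged from -3.77 to -1.13 over the 17 settings in which Shh was tested, from voom at one end to unscaled FPKM at the other, and every one of them was negative. The luminal and basal epithelial marker sums given above were also lower in both tumours, and their part in the Shh values was not tested. The gene overlaps 9530036O11Rik and Gm26894 on the opposite strand. The sources used here do not say whether fragments were assigned by strand.

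Ihh, which encodes the related ligand Indian hedgehog (chromosome 1, 74945318 to 74951651), showed another pattern. It was listed at 0 in normal 1 and tumour 1, stood at 0.281 in normal 2 on 1.0 implied fragment, and stood at 1.73 in tumour 2 on 8.0 implied fragments. Only the tumour 2 value had a deposited interval clear of 0, at 0.764 to 4.45 FPKM as deposited. Ihh did not reach the filter, and without that filter its adjusted p was 0.522. Dhh, the gene of the third mammalian ligand, stayed below the filter too, at 0.430 in normal 1, 0.67 in tumour 2 and 0 in the other two libraries. No ligand gene thus had more than 8.0 implied fragments in any library.

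Among the receptors, Ptch1 was higher in both tumours. Ptch1 (chromosome 13, 63511533 to 63565520) encodes the ligand receptor that represses Smoothened. It stood at 0.681 and 0.461 scaled FPKM in the normal prostates, at 6.85 in tumour 1 and at 2.84 in tumour 2. The deposited intervals of the tumours, 6.94 to 11.5 and 2.52 to 6.03 FPKM, lay wholly above those of the normal prostates, which ended at 1.16 and 0.684. The values rested on 3.0 implied fragments in each normal prostate and on 66.1 and 23.7 in the tumours. The log2 fold change was 1.81 (SE 0.50, 95% interval 0.51 to 3.11), a ratio of 3.5 on the log2(scaled FPKM + 1) scale. Its adjusted p was 0.0654 by limma, so Ptch1 did not pass over all genes tested, although its unadjusted p was 0.0161. At an unadjusted p under 0.05, 2830 of 13162 genes tested were higher. It passed with unscaled FPKM (log2 fold change 2.36, adjusted p = 0.0314), where 28% of genes tested were called higher, and with scaling to the FPKM sum without dominant genes (2.21, adjusted p = 0.0445), where 19.3% were. It also passed without tumour 2 on the same 13162 genes (2.25, adjusted p = 0.0304), where 14.5% were called higher, an alternative chosen after seeing the data. Only the tumours brought it past the filter, so a rise was favoured. Its highest value was in tumour 1, the library with the lowest smooth muscle and luminal marker sums. The fibroblast markers Pdgfra (8.39) and Fbln1 (30.8) were also highest there. The rest of that list, Col1a1, Col1a2, Col3a1, Dcn, Lum and Fap, was higher in tumour 2. The whole list summed to 81.2 in tumour 1 and 401 in tumour 2. The part of these markers in the Ptch1 values was not tested.

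Hhip, which encodes a membrane protein that binds and sequesters Hedgehog ligands, went the other way. Hhip (chromosome 8, 79965851 to 80058008) stood at 2.62 and 1.21 in the normal prostates and was listed at 0 in both tumours. The normal values rested on 25 and 17 implied fragments, more than any other member below the filter had there, while a listed 0 allows up to 3 fragments by counting error. Hhip was left out of the test across genes because only normal 1 had an FPKM of at least 1. Fitted without the filter it had an unadjusted p of 0.0123 and an adjusted p of 0.0831 by limma. In that fit 2437 of 17072 genes were lower at an unadjusted p under 0.05. Over 4 scalings without the filter the adjusted p of Hhip ranged from 0.0731 to 0.0861. Among 11246 genes above 0 in both normal prostates and with an FPKM of 1 or more in either, 1.43% were listed at 0 in both tumours. That class was defined after the value of Hhip was seen and holds genes of every level above its limits. The share therefore does not measure how unusual a listed 0 is for a gene as low as Hhip. No fold is given for Hhip, since its tumours are at 0.

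Ptch1 and Hhip are both known transcriptional targets of GLI factors and differed in direction between the groups, so the 250 bases before each start site are shown. They are from RefSeq on GRCm38.p6, minus strand, printed 5′ to 3′, with CpG dinucleotides in capitals. The Ptch1 window is chr13:63565736-63565985 and the Hhip window is chr8:80058009-80058258.
Ptch1: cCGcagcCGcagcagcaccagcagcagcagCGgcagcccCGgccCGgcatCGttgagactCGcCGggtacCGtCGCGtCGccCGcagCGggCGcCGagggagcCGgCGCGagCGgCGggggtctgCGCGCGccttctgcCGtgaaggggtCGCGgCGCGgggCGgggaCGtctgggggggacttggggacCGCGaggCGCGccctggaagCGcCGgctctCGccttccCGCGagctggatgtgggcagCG
Hhip: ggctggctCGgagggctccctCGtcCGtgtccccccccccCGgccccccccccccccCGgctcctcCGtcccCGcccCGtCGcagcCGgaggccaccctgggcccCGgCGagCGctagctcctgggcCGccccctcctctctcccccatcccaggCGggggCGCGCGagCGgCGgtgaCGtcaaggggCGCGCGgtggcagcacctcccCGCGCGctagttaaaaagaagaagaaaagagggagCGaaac
The Ptch1 window held 41 CpG dinucleotides and the Hhip window 28, against a median of 6 in the same window of 32851 promoters. The GLI consensus GACCACCCA was searched on both strands. It was in neither window and in none of the 7 members' windows that the table holds, and 0.225% of all promoters held it. The shorter core ACCACCC, which lies inside that consensus, was found in the Gli2 window and in 3.92% of all promoters. The start site of Ptch1 in RefSeq lies upstream of the deposited position of the gene, and the match of letters is a description of these windows only.

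Smo, which encodes the signal transducer Smoothened, separated the tumours from each other. Smo (chromosome 6, 29735497 to 29761366) stood at 7.89 and 5.68 scaled FPKM in the normal prostates, at 0.328 in tumour 1 and at 5.28 in tumour 2. Tumour 2 lay close to the normal prostates and tumour 1 far below them, on 3.0 implied fragments against 31.9, 33.4 and 40.0 in the other three libraries. The deposited interval of tumour 1, 0 to 0.950 FPKM, did not overlap any of the others, the lowest of which began at 2.56. The log2 difference between the tumours was 2.24, larger than that of 93.0% of genes tested. Between groups the log2 fold change was -1.42 (SE 0.83, 95% interval -3.57 to 0.74, adjusted p = 0.259 by limma), so no difference was detected at this replication. Without tumour 2 the log2 fold change was -2.42 with an adjusted p of 0.00158, or 0.0507 on the same 13162 genes, and without tumour 1 it was -0.23 with an adjusted p of 0.723, in fits where the lone tumour is assumed to vary like the normal pair. Krt8, Dcn and the smooth muscle, luminal and basal marker sums were likewise lowest in tumour 1, while the fibroblast markers other than Dcn summed to more there (75.7) than in either normal prostate. Their part in the Smo values was not tested. The gene shares its strand with the processed pseudogene Gm13717 inside its span, so its fragments could be split between them.

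Sufu showed no detected difference between the groups. It encodes the protein that retains GLI factors in the cytoplasm and lies on chromosome 19, 46396896 to 46488804. It stood at 4.74 and 4.23 scaled FPKM in the normal prostates and at 2.58 and 3.15 in the tumours, on 19.1 to 27.0 implied fragments. The log2 fold change was -0.51 (SE 0.40, 95% interval -1.54 to 0.53, adjusted p = 0.383 by limma), and the sign turned with unscaled FPKM (0.23) and with scaling to the FPKM sum (0.0076). As deposited the libraries overlapped, at 3.76 and 2.91 against 3.47 and 4.73 FPKM. The interval leaves room for a change of up to 1.54 on the log2 scale, so an equal level was not shown.

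The GLI genes were low in every library and differed in which library held them. Gli1 (chromosome 10, 127329882 to 127341579), which encodes the activator that is itself a target, stood at 2.15 and 0.729 in the normal prostates, was listed at 0 in tumour 1 and stood at 0.422 in tumour 2. These values rested on 6.6, 3.1, 0 and 2.2 implied fragments. Scaled values placed Gli1 lower in both tumours, but as deposited tumour 2 (0.634 FPKM) lay above normal 2 (0.502 FPKM). Without the filter the log2 fold change was -0.97 (SE 0.43, adjusted p = 0.215 by limma), and it was negative under all 4 scalings, from -1.37 to -0.66. The gene overlaps Arhgap9 and the antisense gene Gm47200 on the opposite strand.

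Gli2 (chromosome 1, 118834061 to 119053619), which encodes the main activator upstream of Gli1, was near the limit of detection throughout. It stood at 0.143 in normal 1, was listed at 0 in normal 2 and stood at 0.254 and 0.0747 in the tumours, on at most 4.0 implied fragments. The groups overlapped and the adjusted p without the filter was 0.682, with a sign that turned under quantile normalization (-0.072). Gli3 (chromosome 13, 15463723 to 15730025), which encodes the main repressor, was highest in tumour 1. It stood at 0.226 and 0.307 in the normal prostates, 1.36 in tumour 1 and 0.177 in tumour 2. Tumour 1 held 26.9 implied fragments and a deposited interval of 1.12 to 2.53 FPKM, above the intervals of the other three libraries, which ended at 0.574 or lower. Between groups its log2 fold change without the filter was 0.40 (SE 0.41, adjusted p = 0.531 by limma).

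**Figure D2:**
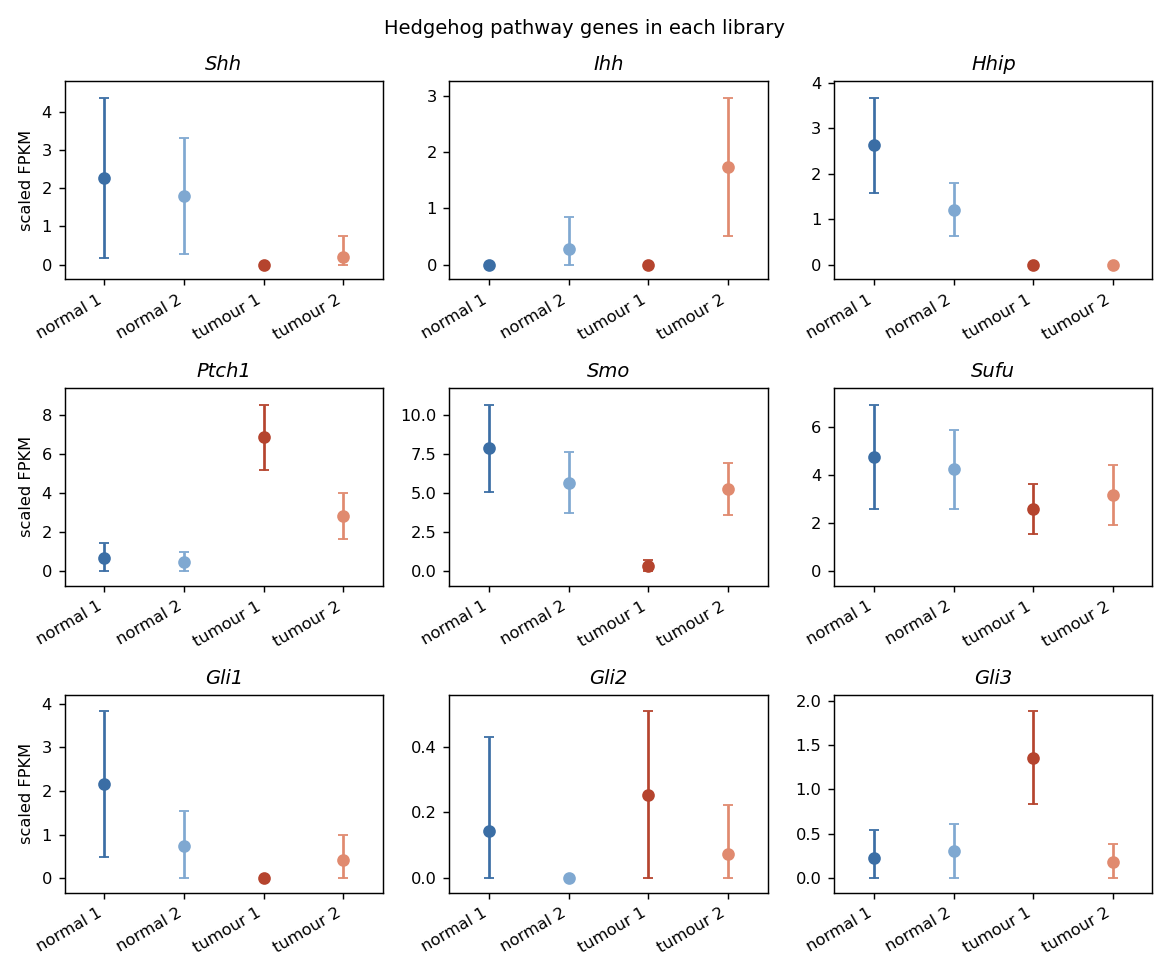
Scaled FPKM of the 9 Hedgehog pathway genes in each of the 4 libraries; points are values and bars the deposited Cufflinks interval divided by the same scaling factor, with a separate linear axis for each gene. Ptch1 stands above the normal prostates in both tumours, Shh and Hhip stand below, and Smo and Gli3 set tumour 1 apart from tumour 2.

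The order of the members changed from normal prostate to tumour, but in tumour 2 Smo stayed first and Sufu next. FPKM is per transcript length, so levels can be ranked within a library. In both normal prostates Smo was highest and Sufu next, at 7.89 and 4.74 in normal 1 and 5.68 and 4.23 in normal 2, with ranges over the pair that did not overlap, although their deposited intervals did within each library. Shh, Hhip and Gli1 followed with overlapping ranges, and Ptch1 was sixth in both at 0.681 and 0.461, just below the lowest value of Gli1. In tumour 1 Ptch1 was highest at 6.85, ahead of Sufu at 2.58 and Gli3 at 1.36, and Shh, Ihh, Gli1 and Hhip were all listed at 0. In tumour 2 the order was Smo at 5.28, Sufu at 3.15, Ptch1 at 2.84 and Ihh at 1.73, and the deposited intervals of Sufu and Ptch1 overlapped. Gli1 stood above Ptch1 in both normal prostates and below it in both tumours. In the normal prostates Gli1 rested on 6.6 and 3.1 implied fragments and Ptch1 on 3.0 in each, so their order there is poorly measured.

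Across the 9 genes, 4 were tested and 5 stayed below the filter. Of the 4 tested, 1 fell, 0 rose and 3 did not pass. By limma at an unadjusted p under 0.05 it was 1 lower and 1 higher, where 2412 and 2830 of 13162 genes tested were. Voom gave 1 lower and 0 higher, where it called 7.51% of all genes lower and 7.95% higher. Of all genes tested 9.85% were called higher and 8.27% lower by limma. With unscaled FPKM and with the FPKM sum, 1 member passed as higher and 0 as lower, beside 3.24% and 4.21% of all genes called lower. Without the filter 0 members passed, where 1.44% of 17072 genes were called higher and 1.46% lower. On the 13162 genes without tumour 2, 1 member passed in each direction, beside 14.5% and 14.3% of genes, and without tumour 1 none did, beside 8.27% higher and 3.49% lower. In scaled values the groups did not overlap for 1 member that was higher in both tumours, Ptch1, and for 5 that were lower, Shh, Smo, Sufu, Gli1 and Hhip. Over 17072 genes listed above 0 in at least 1 library, 33.4% were higher and 27.9% lower in this sense. With FPKM as deposited the members were 2 higher, Ptch1 and Gli3, 2 lower, Shh and Hhip, and 5 overlapping, against 51.1% and 12.7% of the same genes. Shh, Hhip and Ptch1 were on the same side under both scales.

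**Figure D3:**
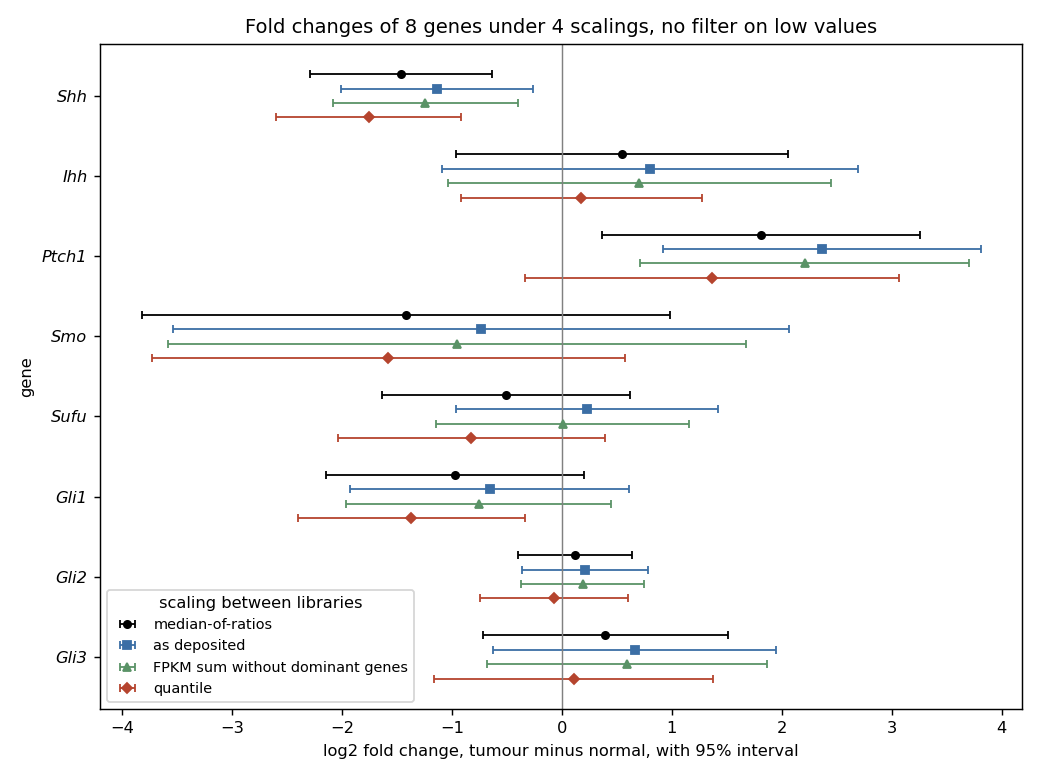
Log2 fold change, tumour minus normal, of 8 of the genes (Hhip, at 0 in both tumours, is left out) with 95% intervals from limma without the filter on low values, under 4 ways of scaling the libraries. Shh lies below 0 and Ptch1 above 0 under all 4, the interval of Ptch1 crosses 0 under quantile normalization, and Sufu and Gli2 change sign.

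Other genes of ligand release and reception did not pass by limma. Of 13 genes, 6 were tested, and 0 rose and 0 fell, where 9.85% and 8.27% of all genes tested did. At an unadjusted p under 0.05 it was 1 higher and 0 lower, where 2830 and 2412 of 13162 genes tested were. By voom 1 rose, where 7.95% of all genes did. Disp1, which encodes the transporter that releases lipid-bearing ligands, was listed at 0 in normal 1 and stood at 0.275 in normal 2 against 3.52 and 1.91 in tumour tissue (log2 fold change 1.68 with an SE of 0.41 and adjusted p = 0.0516), and was the gene that voom called. The coreceptor genes Cdon (1.59 and 2.79 against 3.65 and 4.85, adjusted p = 0.267), Boc (4.41 and 3.43 against 0 and 2.30, adjusted p = 0.181) and Gas1 (7.31 and 1.72 against 1.69 and 1.16, adjusted p = 0.309) did not pass. Boc, like Smo, was lowest in tumour 1, where it was listed at 0.

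Of the intracellular regulators 1 of 23 tested rose and 0 fell, which left 22 short of the threshold. Of all genes tested 9.85% rose. On unscaled FPKM 8 rose, where 28% of all genes did. The median log2 fold change of the list was 0.59. Prkar1a encodes the regulatory subunit that holds protein kinase A inactive. It rose from 37.0 and 43.7 to 191 and 214 scaled FPKM, a ratio of 4.93 on the log2(scaled FPKM + 1) scale. The log2 fold change was 2.30 (SE 0.25, adjusted p = 0.0195 by limma). Protein kinase A acts in many pathways besides this one. Kif7, the ciliary kinesin that acts on GLI factors, had a listed value of 0 in normal 1 and normal 2 and stood at 2.20 and 0.337 in the tumours, on 21.1 and 2.0 implied fragments. Stk36, the homologue of the Drosophila kinase Fused, stood at 0.185 and 0.501 against 2.42 and 1.88 (adjusted p = 0.0741). Spop, an adaptor of the ubiquitin ligase that degrades GLI factors, stood at 75.4 and 79.8 against 35.0 and 59.4 (log2 fold change -0.75, adjusted p = 0.170), and its sign turned with unscaled FPKM (0.17).

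In the primary cilium list, the compartment in which Smoothened acts, several genes rose. Among 21 such genes, all tested, 5 rose and 0 fell, which left 16 short of the threshold, where 9.85% of all genes tested rose, and with unscaled FPKM 9 rose, where 28% of all genes did. The median log2 fold change was 0.52, beside 0.07 over all genes tested. Ift80, a subunit of the intraflagellar transport machinery, rose from 0.958 and 1.30 to 23.0 and 12.5 (log2 fold change 3.08 with an SE of 0.47 and adjusted p = 0.0257). Ttbk2, the kinase that starts cilium assembly, rose from 1.04 and 0.913 to 16.3 and 6.41 (adjusted p = 0.0439 by limma). Kif3a, a motor subunit of intraflagellar transport, rose from 4.10 and 3.20 to 20.5 and 16.8 (adjusted p = 0.0317). Ift122 rose from 0.964 and 1.79 to 7.38 and 7.55 (adjusted p = 0.0465). Arl13b, a ciliary GTPase gene, rose from 0.561 and 0.759 to 3.73 and 5.85 (adjusted p = 0.0479). The fitted ratios of Ttbk2, Kif3a, Ift122 and Arl13b were 5.73, 4.24, 3.61 and 3.44 on the log2(scaled FPKM + 1) scale. That scale understates the change of low genes. Voom called 2 of the 21, Ift80 and Kif3a, and left Ttbk2, Ift122 and Arl13b at adjusted p = 0.0527, 0.0521 and 0.0680. Of the 5, Ift80, Ttbk2 and Arl13b reached the filter through the tumours alone, and all 5 calls were lost without the filter.

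Other genes known as GLI targets were called at about the share of all genes. Of 17 genes 9 were tested, 1 rose, 1 fell and 7 did not pass, where 9.85% of all genes tested rose and 8.27% fell, with a median log2 fold change of 0.64, and 3 of the 9 reached the filter through the tumours alone, Pax9 among them. Pax9, a transcription factor gene, was listed at 0 in normal 1, stood at 0.797 in normal 2 and rose to 71.9 and 23.4 in the tumours (log2 fold change 4.97 with an SE of 0.68 and adjusted p = 0.0225). Ccnd2, which encodes cyclin D2, fell from 5.18 and 3.96 to 0.297 and 0.698 (log2 fold change -1.90 with an SE of 0.40 and adjusted p = 0.0409), and the call did not hold on unscaled FPKM (adjusted p = 0.0697). Ccnd1, which encodes cyclin D1, stood at 22.7 and 18.1 against 0.920 and 5.55 (adjusted p = 0.0597). Mycn, the N-myc oncogene, had a listed value of 0 in normal 1 and normal 2 and stood at 31.8 and 4.47 in the tumours (adjusted p = 0.0520). Foxf1, a target in mesenchyme, stayed below the filter at 0.838 and 0.284 against 0.558 and 0.656. These genes have other regulators too, and their direction says nothing of GLI activity by itself.

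**Figure D4:**
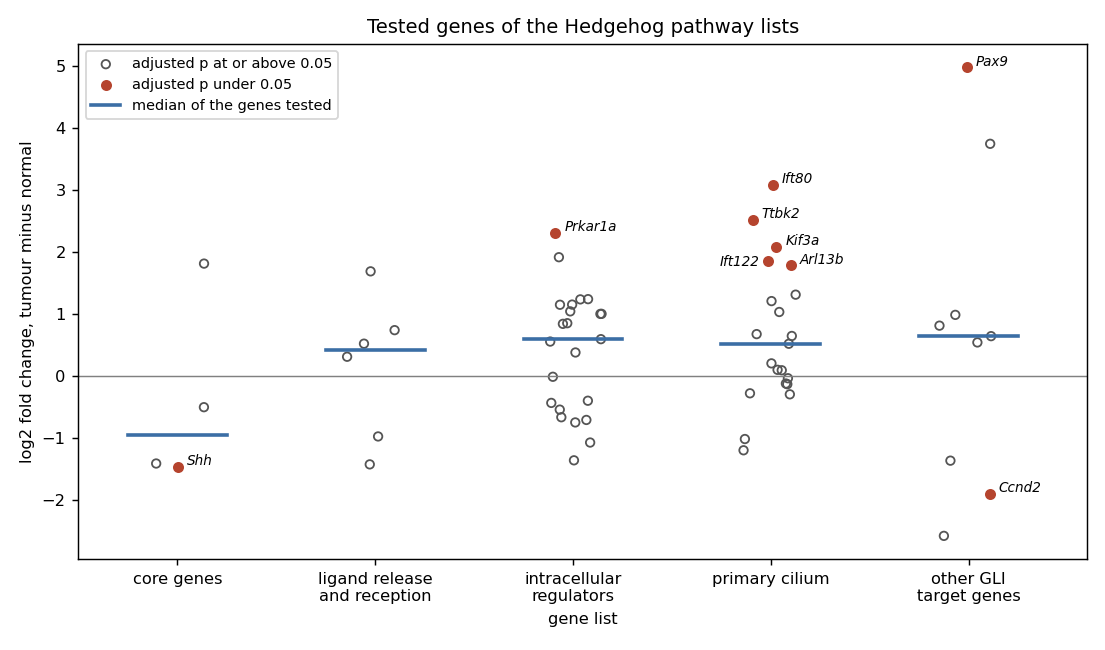
Log2 fold change, tumour minus normal, of the tested core genes (Shh, Ptch1, Smo and Sufu) and of the tested genes of 4 further pathway lists; filled points passed an adjusted p of 0.05 and bars mark the median of each list. The cilium list holds 5 of the 7 rises outside the core genes in this fit, and 2 of 5 by voom.

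The tested genes nearest to each tested member, by Euclidean distance of log2(scaled FPKM + 1) over the 4 libraries, were listed for description. Shh was nearest to Bmp4 (distance 0.12) and Slco1a6 (0.23), and Bmp4 is also on the list of GLI targets, at 2.08 and 1.76 against 0 and 0.271. Ptch1 was nearest to Csrnp2 (0.26) and Tmem231 (0.27). Smo was nearest to Cp (0.15) and Dclk3 (0.22), and Sufu to Mon1b (0.14) and Gcnt2 (0.20). With 4 libraries many genes share a pattern by level alone.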

How the data were processed

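The authors deposited a Cufflinks gene table for each library, with an FPKM value and the bounds of its confidence interval per gene, per the file headers. Per the submitters' processing notes, the tools were Cufflinks 2.1.1 and Cuffdiff 2.1.1, TopHat2 2.0.8 and Trim Galore, with the builds GRCm38 and mm10. The sources used here do not give settings or the annotation. TruSeq libraries were sequenced on an Illumina NextSeq, per the labels' protocols.

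Rows with names turned into dates (27) were left out and repeated names (280) were summed. Implied fragments are the count whose Poisson error, at 2 standard deviations, gives the deposited interval. In the 4 libraries 71.1 to 72.5% of single-start rows with 0.9 to 20 such fragments were within 0.1 of an integer. Intervals and limits cover counting error only. Libraries were scaled by median-of-ratios factors over 11469 genes above 0 in all 4. Genes with an FPKM of at least 1 in at least 2 libraries, 13162 in all, were fitted as log2(scaled FPKM + 1) with limma 3.58.1 (R 4.3.3), intensity trend, two-sided, tumour minus normal, Benjamini-Hochberg adjustment over all genes tested, threshold 0.05. Fold changes on this scale understate the change of low genes. Figures used Python 3.11.15 and matplotlib 3.10.9. The fit was tested on simulated data with the spread of the normal pair and changes only in genes of higher mean level. That test does not cover low genes such as Shh or the spread between the tumours.

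The members and gene lists were chosen with earlier results of these data known. The genes named were the 9 members, 12 fixed pathway genes (1 of them is not reported here), up to 5 called genes per pathway list, 12 cell type markers and the 2 nearest genes to each tested member. Positions are those of the deposited tables, with starts counted from 1.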

Additional observations from a re-analysis of the deposited data

How the results depend on the processing

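Each alternative changed 1 choice, except that the 3 other scalings without the filter changed both, and that leaving out a library also changed which genes passed the filter. Chosen after seeing the data were those scalings without the filter and the fits without 1 library on the 13162 genes of the full filter. The genes called, 1296 higher and 1088 lower, became 3681 and 427 with unscaled FPKM, 2537 and 554 with scaling to the FPKM sum (dominant genes left out), and 245 and 249 without the filter on low values. Without 1 library they ranged from 0 to 2170 higher and from 0 to 3405 lower. Leaving out normal 1 or normal 2 gave 0 calls by limma; the unadjusted p was under 0.05 for 1338 and 1350 higher genes and for 1096 and 1004 lower genes.

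The single member called lower, Shh, was lost (0 members) with unscaled FPKM, with the FPKM sum, under quantile normalization, with a pseudocount of 0.1, without the filter and without the intensity trend. Members called higher became 1, Ptch1, with unscaled FPKM and with the FPKM sum. Without 1 library, members called ranged from 0 to 1 in each direction. The member called lower without tumour 2 was Smo (-2.42), or Shh on the full set of genes. Ptch1 without either tumour, and Shh without either normal prostate, missed the filter of those fits. Signs turned for Sufu, to 0.23 as deposited and 0.0076 with the FPKM sum, with and without the filter, for Gli2 under quantile normalization (-0.072) and for Spop as deposited (0.17).

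Of all genes tested, 9.85% were called higher and 8.27% lower by limma. These shares became 28% and 3.24% as deposited, 19.3% and 4.21% with the FPKM sum, and 1.44% and 1.46% without the filter. Quantile normalization called 884 of 13162 genes higher, and the pseudocount of 0.1 called 814 lower. In the 4 further pathway lists, 7 were called higher and 1 lower over 59 tested. These counts became 21 and 0 as deposited, 14 and 0 with the FPKM sum, and 1 and 0 without the filter. Under quantile normalization 4 were higher, and with a pseudocount of 0.1 the count lower was 0. Without 1 library they ranged from 0 to 10 higher (11 on the full set of genes) and from 0 to 11 lower. The cause of these shifts was not tested. No paired analysis was possible, since the normal prostates came from wild-type mice and the tumours from TRAMP mice, and the labels name no pairs. Depth limits the members too: values resting on under 10 implied fragments, such as those of Shh, Gli1 and Gli2, are poorly measured.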
